A study of Rattus norvegicus with 12 samples.

Results

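Cholesterol synthesis in the rat liver graft was examined through 7 genes, Hmgcs1, Idi1, Fdps, Sqle, Cyp51, Insig1 and Srebf2. They were listed by name as targets or components of the sterol-sensing SREBP2 pathway, with earlier results of these data known. Counts and medians over the 7 genes, set beside those of all tested genes, are therefore descriptions and not a test of the list. All 7 were found among the 33744 genes of the table, and all 7 passed the filter on low counts that left 13687 genes for testing. The genes had been grouped under cholesterol synthesis and uptake, but none of the 7 encodes an uptake receptor, so uptake is described here from a separate list of genes.

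RNA sequencing was performed on livers of male rats in a model of donation after circulatory death (DCD), in which the liver stays in the body without blood flow before it is removed. There were 3 livers in each of 4 groups, and every liver underwent 30 min of warm ischemia (WI). In the HOPE 1 h group this was followed by 3 h of static cold storage (SCS) and then 1 h of hypothermic oxygenated machine perfusion. The HMP 1 h group received the same 3 h of cold storage and 1 h of hypothermic machine perfusion without the oxygenation step. The SCS 4 h group was kept in cold storage for 4 h, and the WI 30 min group had warm ischemia only. No liver without warm ischemia was included, livers were sampled before any simulated transplantation, and no feeding state or time of day was given in the sources used here. Each library came from a whole liver sample, so fewer cells of a type and less RNA per cell cannot be told apart.

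Hepatocytes make cholesterol from acetyl-CoA through the mevalonate pathway. When sterol in the endoplasmic reticulum is low, the escort protein SCAP carries SREBP2 to the Golgi, where proteases release the transcription factor domain, which enters the nucleus and raises transcription of the pathway's enzymes. When sterol is high, INSIG proteins hold SCAP and SREBP2 in the endoplasmic reticulum. Several late steps, among them those of squalene epoxidase (Sqle) and lanosterol 14-alpha-demethylase (Cyp51), use molecular oxygen, which is one reason to look at them under oxygenated and non-oxygenated perfusion.

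The bases before the gene start are shown for the members that hold a sterol regulatory element-like motif or a CCAAT box (bound by NF-Y, which acts with SREBP2 at sterol genes). They come from RefSeq on the GRCr8 assembly, whereas the counts were made on Rnor_6.0. The RefSeq promoter table held an entry for 6 of the 7 members, all but Sqle. Both strands were searched over the 250 bases before the start for TCACNCNA (a loose sterol regulatory element, 8 letters), for TCACNCCAC (a stricter form of it that overlaps it) and for CCAAT (5 letters), motifs chosen after the sequences had been seen. Capitals mark each match to TCACNCNA or CCAAT, with CCAAT appearing as ATTGG where it lies on the other strand.
Fdps (chr2:176804889-176804954, minus strand, counted from -1 at the base before the start, from base -138 to base -73): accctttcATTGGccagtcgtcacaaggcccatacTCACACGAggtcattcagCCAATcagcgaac
Srebf2 (chr7:115543143-115543190, plus strand, from base -164 to base -117): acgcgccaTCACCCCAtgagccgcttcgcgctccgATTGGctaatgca
Idi1 (chr17:66547547-66547598, minus strand, from base -74 to base -23): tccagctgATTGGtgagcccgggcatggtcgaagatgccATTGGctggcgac
Hmgcs1 (chr2:53382108-53382183, plus strand, from base -196 to base -121): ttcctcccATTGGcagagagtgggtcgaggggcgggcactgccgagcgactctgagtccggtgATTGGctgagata
Insig1 (chr4:8057950-8057970, minus strand, from base -201 to base -181): ctcctcccATTGGctcccgcg

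The loose element matched in 2 of the 6 members, Fdps and Srebf2, and in 8.38% of 33469 promoters of the same length. Both of these genes also held CCAAT in the window. Each printed stretch was cut to span all matches of its gene, so lying in the same stretch carries no information. CCAAT itself matched in 5 of the 6 members and in 34.0% of all promoters. The stricter element matched in 0 of the 6 members and in 0.974% of promoters, and Cyp51 held neither the loose element nor CCAAT in this window. These matches describe letters in a fixed window only.

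HMP liver 1 and HOPE liver 3 stood apart from the other libraries. Mitochondrially encoded transcripts took 18.7% of the counts of HMP liver 1 and between 4.79% and 10.2% in the other 11 livers. The mean of 21 markers of Kupffer, endothelial, stellate and bile duct cells reached 1.05 for HMP liver 1 and 0.81 for HOPE liver 3, and lay between -0.51 and 0.13 in the others. Markers of hepatocytes took between 14.1% and 19.7% of the counts in all 12 livers. The part of these features in the results was not tested, and results that rest on HMP liver 1 are given with and without it.

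Levels between genes were compared per length, from the FPKM values (fragments scaled to transcript length and library size) deposited by the authors. Over the 12 livers, Insig1 averaged 75.5 ± 58.3 FPKM and Hmgcs1 54.8 ± 19.4 FPKM (SD, n = 12), with overlapping ranges. Fdps averaged 20.7 ± 3.95 FPKM and Cyp51 18.7 ± 6.29 FPKM, and these also overlapped. Srebf2 averaged 6.33 ± 0.964 FPKM, Sqle 3.98 ± 1.17 FPKM and Idi1 2.69 ± 1.34 FPKM, the lowest of the 7. The feedback inhibitor and the HMG-CoA synthase thus had the highest mean FPKM of the list, and the isomerase and the epoxidase the lowest. Total counts per liver ranged from 15262961 to 18343167, so Idi1 was measured from 82 to 262 raw counts per liver, Sqle from 102 to 292 and Insig1 from 900 to 8668.

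All values per liver below are CPM, counts scaled to library size after TMM normalization, given for livers 1, 2 and 3 of each group. A gene was called when its Benjamini-Hochberg adjusted p over all tested genes was under 0.05 in edgeR's quasi-likelihood test. Nothing in the sources used here says that liver 1 of one group was handled with liver 1 of another.

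**Figure D1:**
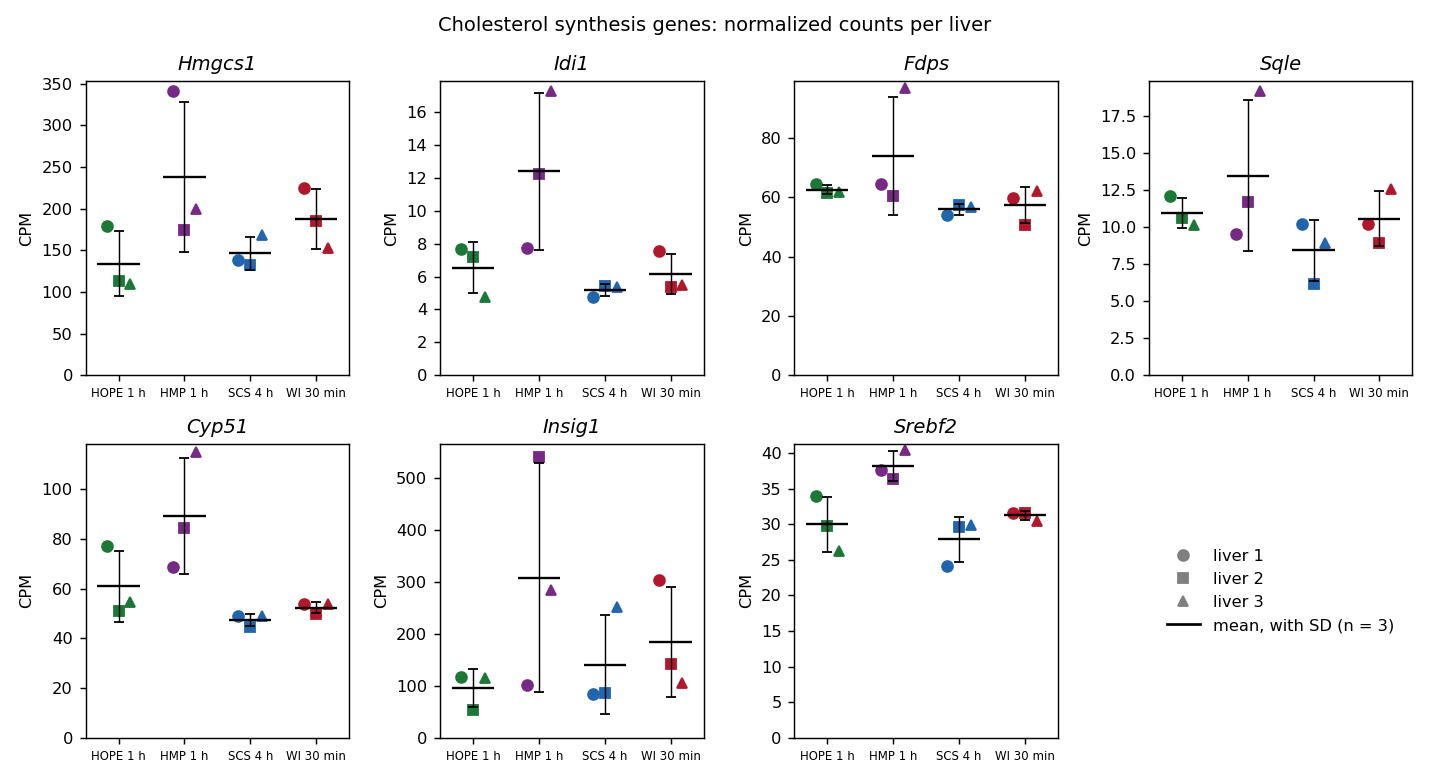
Normalized counts (CPM, linear axes from 0) of each cholesterol synthesis gene in the 12 livers, by group; points are livers and bars the mean with SD (n = 3). HMP 1 h has the highest mean in all 7 panels, while the highest HMP liver is liver 1 for Hmgcs1, liver 2 for Insig1 and liver 3 for the other 5 genes.

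The early enzymes of the pathway are described first. Hmgcs1 (ENSRNOG00000016552, Rnor_6.0 chr2:52431601-52445055) encodes cytosolic HMG-CoA synthase, which condenses acetyl-CoA with acetoacetyl-CoA. It had 178.7, 113.7 and 109.4 CPM in HOPE 1 h livers, 340.9, 173.9 and 200.02 CPM in HMP 1 h livers, 138.6, 132.2 and 168.4 CPM in SCS 4 h livers and 224.9, 185.3 and 153.3 CPM in WI 30 min livers. HMP liver 1 stood far above the other 11 livers, and the remaining HMP livers lay within the range of the WI livers. HOPE was the lowest group on average, at 133.9 ± 38.8 CPM, beside 238.3 ± 89.8 CPM in HMP (SD, n = 3 each).

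Idi1 (ENSRNOG00000016690, chr17:57976268-57984036) encodes the isomerase that interconverts the 5-carbon isoprenoid units. Its values were 7.69, 7.17 and 4.77 CPM in HOPE livers, 7.71, 12.2 and 17.2 CPM in HMP livers, 4.77, 5.42 and 5.37 CPM in SCS livers and 7.56, 5.37 and 5.50 CPM in WI livers. All 3 HMP livers lay above all 9 other livers in CPM, although HMP liver 1 exceeded HOPE liver 1 by only a small margin. Both of these livers had 135 raw counts, and in FPKM their order was reversed (2.73 in HMP liver 1, 2.75 in HOPE liver 1). In raw counts the HMP livers held 135, 196 and 262 against 85, 90 and 82 in SCS livers. The first 100 bases of Idi1 overlap the opposite-strand gene Wdr37 (172 to 251 counts per liver), and whether counting used strand was not given in the sources used here. Of 4 other isomerase-like loci in the table, none held more than 3 counts in any liver.

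Fdps (ENSRNOG00000043377, chr2:188392858-188413219) encodes farnesyl diphosphate synthase, whose product feeds both sterols and protein prenylation. It had 64.3, 61.5 and 61.6 CPM in HOPE livers, 64.3, 60.5 and 96.8 CPM in HMP livers, 53.9, 57.2 and 56.8 CPM in SCS livers and 59.8, 50.6 and 61.9 CPM in WI livers. HMP liver 3 was the only liver far from the rest. The 3 HOPE livers were within 1.04-fold of each other and all above the 3 SCS livers.

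The oxygen-using enzymes came next in the pathway. Sqle (ENSRNOG00000009550, chr7:99609191-99624732), squalene epoxidase, had 12.1, 10.6 and 10.1 CPM in HOPE livers, 9.54, 11.7 and 19.2 CPM in HMP livers, 10.2, 6.14 and 8.97 CPM in SCS livers and 10.2, 8.93 and 12.6 CPM in WI livers. Again HMP liver 3 was highest, and HMP liver 1 lay below all 3 HOPE livers. The groups overlapped in every pair.

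Cyp51 (ENSRNOG00000007234, chr4:27175243-27194018), lanosterol 14-alpha-demethylase, had 77.3, 50.9 and 54.7 CPM in HOPE livers, 68.7, 84.3 and 114.7 CPM in HMP livers, 49.0, 44.7 and 49.0 CPM in SCS livers and 53.8, 49.8 and 53.7 CPM in WI livers. The 6 unperfused livers were tight, between 44.7 and 53.8 CPM, and every HMP liver lay above all of them. HOPE liver 1 was near the HMP livers, and the other HOPE livers were near the unperfused ones.

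The regulators differed most in how variable they were. Insig1 (ENSRNOG00000006859, chr4:342302-350515) encodes an endoplasmic reticulum protein that retains SCAP and is itself an SREBP target. It had 117.9, 53.3 and 115.7 CPM in HOPE livers, 101.3, 541.4 and 284.0 CPM in HMP livers, 85.2, 87.4 and 251.6 CPM in SCS livers and 304.2, 143.2 and 106.3 CPM in WI livers. HMP, SCS and WI each held 1 or more livers above 250 CPM beside livers near 100 CPM. Its within-group SD was 0.91 on the log2 scale, at the 94.4th percentile of the tested genes, where the median gene had 0.292.

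Srebf2 (ENSRNOG00000007400, chr7:123381077-123438603) encodes SREBP2 itself and hosts Mir33 within its gene. It had 34.0, 29.7 and 26.3 CPM in HOPE livers, 37.6, 36.3 and 40.5 CPM in HMP livers, 24.2, 29.6 and 29.8 CPM in SCS livers and 31.6, 31.6 and 30.5 CPM in WI livers. The 3 HMP livers lay above all 9 other livers. It was the steadiest member, with a within-group SD of 0.13 on the log2 scale at the 8.77th percentile, and the other 5 members lay between the 29.2nd and the 60.4th percentile.

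HMP 1 h had the highest mean of the 4 groups for all 7 genes. The lowest mean was in SCS 4 h for 5 genes and in HOPE 1 h for Hmgcs1 and Insig1. The order among HOPE, SCS and WI was not resolved, since 0 members reached an unadjusted p under 0.05 in any comparison between those 3 groups.

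HOPE with HMP is the comparison in which the perfused groups differ by oxygenation. All 7 genes had negative log2 fold changes of HOPE over HMP, but none was called. Insig1 stood at -1.69 ± 0.62 (SE), Idi1 at -0.92 ± 0.28, Hmgcs1 at -0.83 ± 0.27, Cyp51 at -0.55 ± 0.19 and Srebf2 at -0.35 ± 0.13, while Sqle stood at -0.30 ± 0.26 and Fdps at -0.24 ± 0.16. In edgeR their adjusted p lay between 0.558 and 0.844, and 5 of the 7 had an unadjusted p under 0.05, beside 7.48% of all tested genes. Called genes made up 0% of the tested genes in edgeR and 0.139% in DESeq2, which also called 0 members. The median over the 7 was -0.55, beside -0.0064 over all tested genes. The livers of the groups did not overlap in CPM for Idi1 and Srebf2, lower in HOPE, as for 4.89% of tested genes. For Idi1 this rested on 7.71 CPM in HMP liver 1 against 7.69 CPM in HOPE liver 1, and in FPKM the groups overlapped.

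The size of the HOPE and HMP difference rested on single HMP livers for part of the list. Insig1 stood at -1.01 without HMP liver 2 and at -2.13 without HMP liver 1. Hmgcs1 stood at -0.50 without HMP liver 1 and at -1.09 without HOPE liver 1. Without HMP liver 3, Sqle stood at 0.03 and Fdps at -0.01. At the other end, Sqle stood at -0.52 without HMP liver 1 and Fdps at -0.37 without HMP liver 2. For Idi1 the values over all left-out livers ran from -1.19 to -0.62, for Cyp51 from -0.76 to -0.34 and for Srebf2 from -0.44 to -0.26.

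HMP with SCS had the largest median difference of the 6 comparisons between groups and the widest difference for 5 genes, while Insig1 and Hmgcs1 lay farther apart in HOPE with HMP. The log2 fold changes of HMP over SCS were 1.26 ± 0.29 for Idi1, 1.13 ± 0.61 for Insig1, 0.91 ± 0.19 for Cyp51, 0.70 ± 0.27 for Hmgcs1, 0.67 ± 0.26 for Sqle, 0.45 ± 0.13 for Srebf2 and 0.40 ± 0.16 for Fdps. On the linear scale Idi1 was 2.39-fold and Cyp51 1.88-fold higher in HMP livers. In edgeR none was called, the nearest being Cyp51 (adjusted p = 0.088), Idi1 (adjusted p = 0.0934) and Srebf2 (adjusted p = 0.143). An unadjusted p under 0.05 was reached by 6 of the 7, all but Insig1, beside 14.5% of tested genes. The median was 0.70, beside 0.037 over all tested genes. Livers did not overlap for 5 of the 7, higher in HMP, as for 7.29% of tested genes, the exceptions being Sqle and Insig1.

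DESeq2 called 3 members in HMP over SCS, namely Cyp51 (adjusted p = 0.00262), Idi1 (adjusted p = 0.00508) and Srebf2 (adjusted p = 0.0391), at log2 fold changes of 0.92, 1.27 and 0.47, where it called 3.16% of tested genes and edgeR 0%. The edgeR result changed with the livers fitted. Without HMP liver 1, whose library stood apart, edgeR called 36 of 13887 tested genes. Among them were Idi1 (log2 fold change 1.53, adjusted p = 0.041) and Cyp51 (1.08, adjusted p = 0.0462). Leaving out WI livers, which are not in this comparison, also gave calls, with no member among them. edgeR called 30 of 14055 tested genes without WI liver 3 and 16 of 13995 without WI liver 1. Without HMP liver 3 it called 8 of 14063, again with no member. The cause was not tested. Without HMP liver 1 Hmgcs1 stood at 0.37, without HMP liver 2 Insig1 stood at 0.44, and without HMP liver 3 Sqle stood at 0.36 and Fdps at 0.18. Srebf2 kept a value between 0.36 and 0.50 whichever liver was left out. When the fit omitted HOPE liver 3 as well as HMP liver 1, Idi1 stood at 1.53 in HMP over SCS (adjusted p = 0.0252 in edgeR). In HMP over WI it stood at 1.27 (adjusted p = 0.0396 in edgeR). No other member was called in these comparisons, where edgeR called 22 and 46 of 13733 tested genes.

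HMP with WI took the same direction with smaller differences, and it shares the HMP livers with the comparisons above. All 7 log2 fold changes of HMP over WI were positive, with a median of 0.36 beside 0.029 over all tested genes. Idi1 stood at 1.01 ± 0.28 (adjusted p = 0.171 in edgeR), Cyp51 at 0.77 ± 0.19 (adjusted p = 0.131), Fdps at 0.36 ± 0.16 and Srebf2 at 0.29 ± 0.13, the 4 members with an unadjusted p under 0.05, beside 13.8% of tested genes. Hmgcs1 at 0.34 ± 0.26, Sqle at 0.35 ± 0.26 and Insig1 at 0.74 ± 0.61 had intervals that included 0. Single HMP livers carried much of the value of 4 members, with Hmgcs1 at 0.0017 without liver 1, Insig1 at 0.06 without liver 2, and Sqle at 0.0057 and Fdps at 0.12 without liver 3. The livers did not overlap for 3 members, Idi1, Cyp51 and Srebf2, higher in HMP, as for 7.57% of tested genes. edgeR called 0% of tested genes and no member. DESeq2 called 2.85% of them, with Cyp51 (adjusted p = 0.0212) and Idi1 (adjusted p = 0.0436) among them.

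The comparisons of HOPE with the unperfused groups gave no call. Over SCS, 5 of the 7 log2 fold changes were positive, with a median of 0.16 beside 0.039 over all tested genes. The 95% intervals ran from -0.06 to 0.77 for Cyp51, from -0.29 to 0.96 for Idi1 and from -1.89 to 0.77 for Insig1, so differences of moderate size could not be told from 0. None of the 7 had an unadjusted p under 0.05, beside 10.9% of tested genes, and none was called by edgeR (0% of tested genes) or DESeq2 (1.49%). Fdps and Cyp51 did not overlap, higher in HOPE, as for 8.97% of tested genes. Without HOPE liver 1, Cyp51 stood at 0.15, beside 0.36 ± 0.19 with all livers. Insig1 stood at -0.56 ± 0.61 with all livers and at 0.15 without SCS liver 3.

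Over WI, 4 of the 7 log2 fold changes of HOPE were positive and 3 negative, with a median of 0.049 beside 0.023 over all tested genes. Hmgcs1 stood at -0.49 ± 0.27 and Insig1 at -0.95 ± 0.61, and the other 5 lay between -0.06 and 0.22. Insig1 stood at -0.39 without WI liver 1, and Hmgcs1 at -0.76 without HOPE liver 1. Srebf2 had the narrowest interval, from -0.33 to 0.22. Unadjusted p was under 0.05 for 0 members, beside 8.57% of tested genes. The livers of the groups overlapped for all 7, whereas 16.2% of tested genes did not overlap in one direction or the other. edgeR called 0% of tested genes and DESeq2 0.709%, with no member in either.

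SCS over WI gave small negative log2 fold changes for all 7 genes, between -0.39 and -0.04, with a median of -0.25 beside 0.014 over all tested genes. No member had an unadjusted p under 0.05, beside 4.77% of tested genes, and no member was called where edgeR called 0% and DESeq2 0.11% of tested genes. Cyp51 (49.0, 44.7 and 49.0 CPM in SCS livers, 53.8, 49.8 and 53.7 CPM in WI livers) and Srebf2 did not overlap, lower in SCS, as for 5.86% of tested genes. Their log2 fold changes were -0.14 ± 0.19 and -0.16 ± 0.13. Insig1 stood at 0.18 without WI liver 1 and Fdps at 0.02 without WI liver 3, beside -0.39 ± 0.61 and -0.04 ± 0.16 with all livers.

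**Figure D2:**
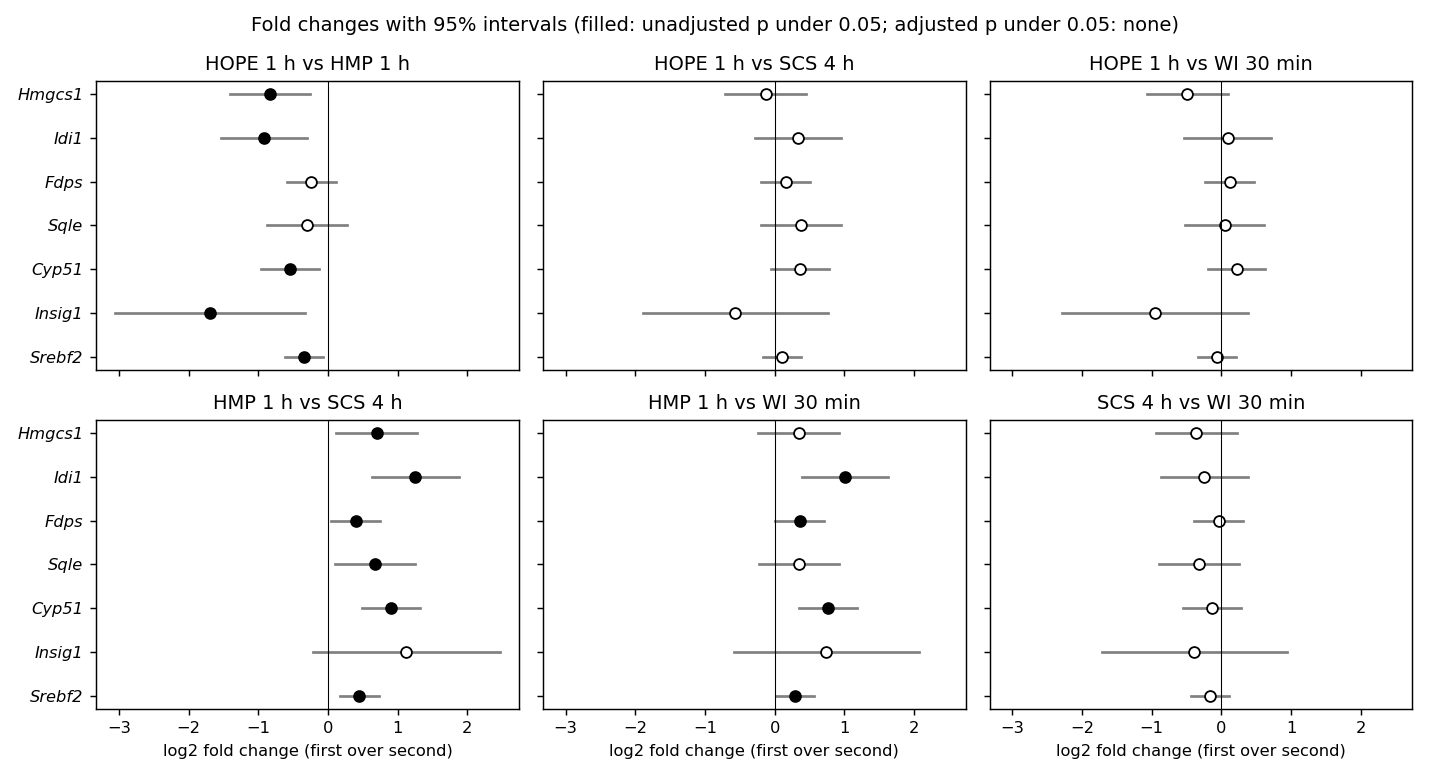
Log2 fold changes (first group over second) of the 7 genes in the 6 comparisons between groups; points are edgeR estimates, lines 95% intervals, filled points an unadjusted p under 0.05. Filled points occur only in the 3 comparisons that include HMP 1 h, and no gene had an adjusted p under 0.05.

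Taking the perfused livers (HOPE and HMP, 6 livers) over the unperfused ones (SCS and WI, 6 livers), all 7 log2 fold changes were positive, with a median of 0.26 beside 0.030 over all tested genes. Cyp51 stood at 0.56 ± 0.13 (adjusted p = 0.0709 in edgeR) and Idi1 at 0.67 ± 0.20 (adjusted p = 0.128), followed by Fdps at 0.26 ± 0.11 and Srebf2 at 0.20 ± 0.09. These 4 had an unadjusted p under 0.05, beside 17.7% of tested genes. edgeR called 1.02% of tested genes, with no member among them. DESeq2 called 5.53%, with Cyp51 (adjusted p = 0.00975) and Idi1 (adjusted p = 0.0465) among them. Without HMP liver 1 edgeR called 114 of 13887 tested genes, with Cyp51 (0.65, adjusted p = 0.0449) among them. The direction turned for Insig1 without HMP liver 2 (-0.25, beside 0.09 with all livers) and for Hmgcs1 without HMP liver 1 (-0.06, beside 0.11), and Fdps stood at 0.15 without HMP liver 3. The perfused and unperfused livers overlapped for all 7 genes, and 1.83% of tested genes did not overlap. This comparison averages HOPE and HMP, whose own values for these genes lay apart as given above.

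A test of any difference among the 4 groups called 0% of tested genes in edgeR and 0 members. Cyp51 (unadjusted p = 0.00196, adjusted p = 0.18), Idi1 (0.00303, 0.202), Srebf2 (0.0194, 0.315) and Hmgcs1 (0.0328, 0.36) had an unadjusted p under 0.05 in edgeR, as did 12.3% of tested genes. DESeq2 called 4.15% of tested genes, and Cyp51 (adjusted p = 0.00444) and Idi1 (adjusted p = 0.00705) were the 2 members among them.

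Some of the genes also varied together from liver to liver. Over the 12 livers, 21 pairs of genes were compared by the correlation of their log2 CPM, with permutation p adjusted over the 21 pairs. Idi1 and Cyp51 had the highest Pearson's r of the 21, at r = 0.911 (permutation p = 0.00022, adjusted 0.00252) and Spearman's rho = 0.776 (permutation p = 0.0046, adjusted 0.0255). Idi1 and Srebf2 had r = 0.848 (permutation p = 0.00024, adjusted 0.00252) and the highest Spearman's rho, at rho = 0.874 (permutation p = 0.00039, adjusted 0.00819). Fdps and Cyp51 had r = 0.825 (permutation p = 0.00105, adjusted 0.00441) and rho = 0.769 (permutation p = 0.00485, adjusted 0.0255). Part of each rested on 2 livers, by an alternative chosen after seeing the data. Without HMP livers 2 and 3, the farthest from the median of Idi1, r fell to 0.658 for Idi1 and Cyp51 and to 0.783 for Idi1 and Srebf2, and without HMP liver 3 and WI liver 2, r fell to 0.625 for Fdps and Cyp51.

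Insig1 and Hmgcs1 had lower r with most of the other genes. Insig1 had r between 0.258 and 0.579 with the other 6 genes, and its r with Cyp51 was 0.514 over all livers and 0.0034 without HMP livers 2 and 3. Hmgcs1 had r between 0.169 and 0.698, the highest with Srebf2 (rho = 0.832, permutation p = 0.0014, adjusted 0.0147; r = 0.575 without HMP liver 1 and HOPE liver 3). Without those livers, r between Hmgcs1 and Insig1 was 0.772, beside 0.372 over all 12. Differences between groups enter these values and their permutation p, since livers were permuted across the groups. After taking off the group means, r was 0.732 for Idi1 and Cyp51, 0.769 for Sqle and Cyp51, 0.709 for Sqle and Fdps and 0.677 for Fdps and Cyp51, whereas Hmgcs1 had r between -0.219 and 0.441 with the other genes. Srebf2 then had r between 0.037 (Sqle) and 0.555 (Idi1) with the other genes. Its r with Idi1 fell from 0.848 to 0.555 and with Cyp51 from 0.805 to 0.461. The r of Sqle rested in part on HMP liver 3 and SCS liver 2, the farthest from its median. Without them and with group means kept, r of Sqle with Cyp51 was 0.509, beside 0.797 over all 12. It was 0.572 with Fdps, beside 0.781, and 0.391 with Idi1, beside 0.703.

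**Figure D3:**
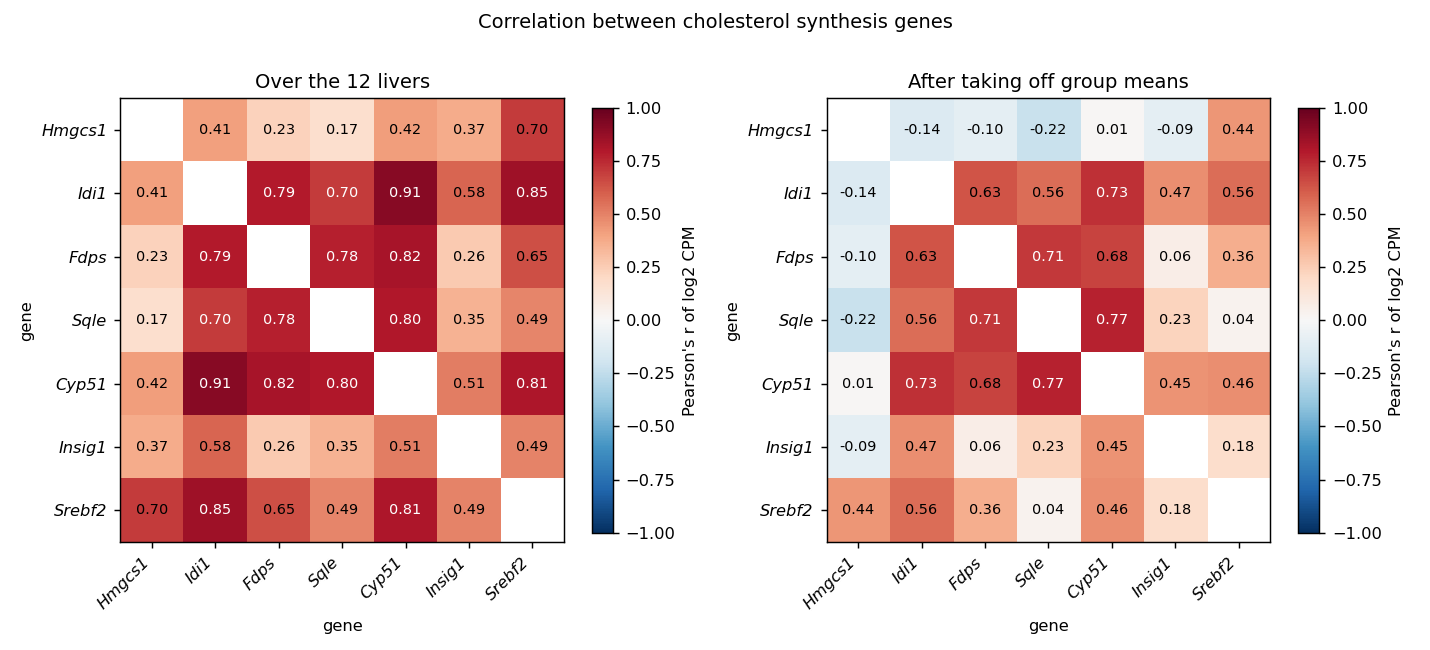
Pearson's r of log2 CPM between the 7 genes, over the 12 livers on the left and after taking off the group means on the right; the colour scale runs from -1 to 1. Sqle, Idi1, Fdps and Cyp51 are correlated in both panels (Idi1 and Cyp51 at 0.911 and 0.732). Both panels include HMP liver 3, the highest liver for each of these genes. Hmgcs1 stays below 0.45 with every gene in the right panel.

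The mean of the 7 genes (centred log2 CPM) was 0.092, -0.33 and -0.28 in HOPE livers, 0.14, 0.51 and 0.76 in HMP livers, -0.36, -0.41 and -0.04 in SCS livers and 0.19, -0.15 and -0.13 in WI livers. HMP livers 2 and 3 were the highest, and HMP liver 1 lay near HOPE liver 1 and WI liver 1. By the likeness rule, genes outside the list with the highest Pearson's r to this mean over the 12 livers, among 8958 genes compared, included Slc35b2 (0.922), Il1rn (0.889), Acsl3 (0.884), Rbbp8 (0.877) and Ptprs (0.856). These are descriptions of likeness in 12 libraries that share the same groups, with no test.

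The other enzymes of the sterol pathway gave a mixed picture. Of 16 measured, 13 had negative log2 fold changes of HOPE over HMP (median -0.20). None was called by edgeR, and 3 had an unadjusted p under 0.05, beside 7.48% of tested genes. Those 3 were Hsd17b7, a sterol ketoreductase, at 0.57 ± 0.24, Ggps1, which makes geranylgeranyl diphosphate, at -0.39 ± 0.18, and Pmvk, phosphomevalonate kinase, at -0.72 ± 0.33. In HMP over SCS, 9 were positive and 7 negative (median 0.11), again with none called. Acat2, which makes acetoacetyl-CoA for Hmgcs1, stood at 1.33 ± 0.44 and Msmo1, the oxygen-using sterol C4-methyl oxidase, at 0.60 ± 0.22, while Nsdhl, the decarboxylating dehydrogenase of the same demethylation, stood at -0.30 ± 0.11. Acat2 had 2.29, 4.87 and 6.51 CPM in HMP livers, against 1.51, 1.81 and 2.09 CPM in SCS livers. Nsdhl had 138.0, 158.9 and 160.9 CPM in HMP livers, against 190.0, 182.5 and 192.3 CPM in SCS livers, so neighbouring steps did not share a direction. In HMP over WI, 12 of the 16 were positive (median 0.15).

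Among 8 genes of SREBP processing, none was called in any comparison by edgeR. Insig2, the INSIG paralog whose liver-specific transcript is known to respond to insulin, had 283.9, 235.4 and 144.2 CPM in HOPE livers, against 362.3, 428.8 and 343.3 CPM in HMP livers, without overlap (log2 fold change -0.77 ± 0.24, adjusted p = 0.558 in edgeR). Scap, the escort protein, stood at -0.34 ± 0.14 in the same comparison, also without overlap. The livers of HOPE lay below those of HMP without overlap for 4.89% of tested genes. Srebf1, which encodes the SREBP that acts mainly on fatty acid synthesis, had 76.5, 59.2 and 27.1 CPM in HOPE livers, against 64.1, 122.7 and 85.9 CPM in HMP livers, which overlapped.

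Cholesterol uptake and intracellular transport, the side of sterol supply that the 7 genes do not cover, had none of its 11 genes called in any comparison by edgeR. Of these 11, 6 were positive and 5 negative in HOPE over HMP (median 0.013), and likewise 6 and 5 in HMP over SCS (median 0.16). By edgeR, 0 had an unadjusted p under 0.05 in both, beside 7.48% and 14.5% of tested genes. In HOPE over SCS, 8 were positive and 3 negative (median 0.047), and in HOPE over WI 9 and 2 (median 0.025). Lrp1, an endocytic receptor for remnant particles, stood at -0.21 ± 0.16 in HOPE over HMP and at 0.26 ± 0.16 in HMP over SCS. Stard4, a cytosolic sterol carrier, stood at 0.50 ± 0.30 in HMP over SCS.

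Sterol export, esterification and oxysterol response (10 genes) had medians of 0.044 in HOPE over HMP and -0.23 in HMP over SCS, and 11 tested fatty acid synthesis genes had medians of -0.16 and 0.17, with none called by edgeR. The fatty acid desaturase gene Scd had 12.2, 24.3 and 3.57 CPM in HOPE livers, against 3.20, 58.3 and 22.4 CPM in HMP livers, which overlapped.

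**Figure D4:**
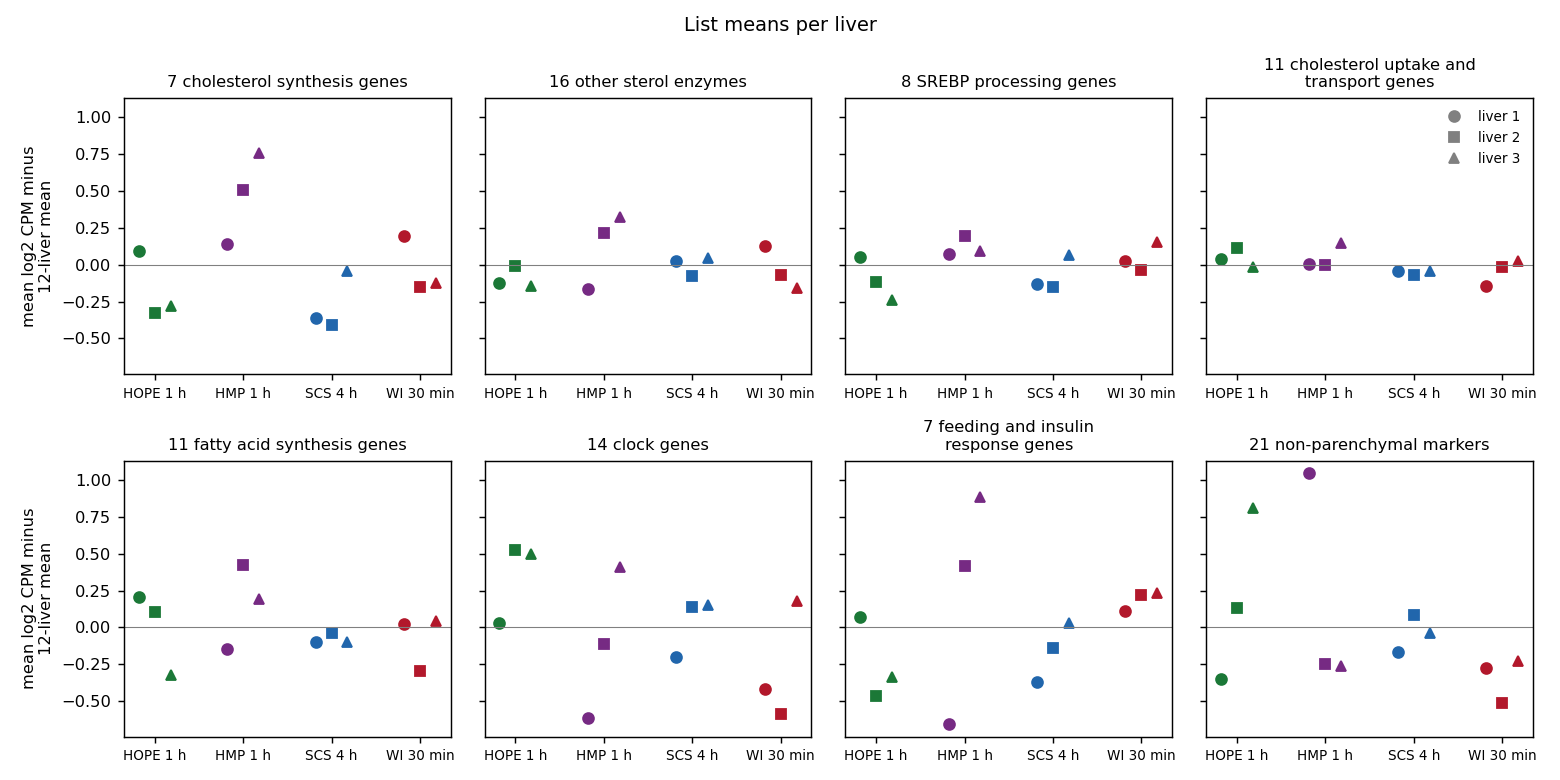
Mean centred log2 CPM per liver for the 7 cholesterol synthesis genes and 7 other lists; each point is a liver and 0 the mean of the 12 livers. HMP livers 2 and 3 (0.51 and 0.76) lead the cholesterol genes and also the feeding and insulin response genes (0.42 and 0.88), while HMP liver 1 is lowest for the feeding list (-0.66) and highest for non-parenchymal markers (1.05).

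Other properties of the livers also varied, in part in the same order as these genes. The feeding and insulin response list (7 genes) averaged -0.66, 0.42 and 0.88 in HMP livers 1, 2 and 3. It was lowest in liver 1 and highest in liver 3, as was the mean of the cholesterol genes. The order of the livers also matched in HOPE (0.071, -0.47 and -0.34 for the feeding list). It did not match in SCS (-0.37, -0.14 and 0.03) or in WI (0.11, 0.22 and 0.23). Of 14 clock genes, 7 had an unadjusted p under 0.05 in HOPE over HMP, beside 7.48% of all tested genes, and none was called by edgeR. Of the 14, 11 had positive and 3 negative log2 fold changes. Dbp, a clock output factor, had 37.8, 185.4 and 174.3 CPM in HOPE livers, against 7.88, 13.6 and 84.7 CPM in HMP livers. In the other direction Npas2, a clock activator, stood at -2.30 ± 0.70 and Clock at -0.48 ± 0.17. The part of feeding state or clock phase in the results for the cholesterol genes was not tested.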

How the data were processed

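RNA was sequenced from 12 rat livers, 3 per group. Per the methods and the submitters' processing notes, the authors aligned paired-end reads with Hisat2 to Rnor_6.0 and assembled transcripts with StringTie. The sources used here do not give how genes were counted. The table deposited by the authors holds raw counts per gene and FPKM per liver. Their group means, fold changes and p-values were not used. Each column of values per liver was matched to a liver by its name.

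Counts were filtered with filterByExpr, TMM-normalized and fitted with edgeR 4.0.16 (quasi-likelihood, limma 3.58.1, R 4.3.3), all 12 livers in 1 fit with a mean per group. log2 CPM used a prior count of 2. FPKM served only to compare levels between genes. Adjusted p is Benjamini-Hochberg over 13687 genes. In the tests between groups, the p-values set a difference against the spread between the livers labelled as one group. Correlations were tested with 100000 permutations of all 12 livers across the groups, so differences between groups enter those p-values. The alternatives tried were a replicate block, leaving out each liver in turn or the libraries that stand apart, fitting the compared groups alone, RLE factors, no low-count filter, and DESeq2 1.42.0. The edgeR and DESeq2 fits were also run on simulated counts, for HOPE over WI only. The outcome of that run is not given here, and no result rests on it.

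The members and gene lists were chosen with earlier results of these data known. Beyond the 7 members, the text names at most 3 genes per list and comparison, those with the smallest unadjusted p, and the 6 genes most like the members' mean; Clock, Dbp and Scd were named after their values were seen. Some genes that these rules select are not reported here.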

Additional observations from a re-analysis of the deposited data

How the results depend on the processing

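Of 875 fold changes of the 7 genes recomputed under the alternatives, 860 kept their side of the threshold, 13 passed the threshold only under the alternative (Idi1, Cyp51 or Srebf2, each in the direction first found) and 2 changed sign. The sign changes were Sqle in HOPE over HMP without HMP liver 3 (0.030, the range over single livers left out being -0.52 to 0.030) and Insig1 in HOPE over SCS without SCS liver 3 (0.15, range -0.83 to 0.15). A further 16, all from leaving out livers, differed in sign by no more than 1 SE and are counted among the 860. Against 0 members called by edgeR with all livers, DESeq2 called 3 in HMP over SCS and 2 each in HMP over WI, in perfused over unperfused livers and in the test among the 4 groups. Leaving out 1 liver at a time gave between 0 and 2 called members in HMP over SCS and between 0 and 1 in perfused over unperfused livers, in each case through HMP liver 1. The fit without that liver called 36 and 114 of 13887 tested genes in these comparisons. The fit without WI liver 3 called 30 and 166 of 14055, with no member among them. With both HMP liver 1 and HOPE liver 3 out, there was 1 called member (Idi1) in HMP over SCS, HMP over WI and perfused over unperfused livers. Over all genes that fit called 22, 46 and 61 of 13733 in the same order. The cause of these differences was not tested.

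With the replicate number as a replicate block, 0 members were called in any comparison. Same-numbered livers of different groups did not deviate together (correlations between -0.189 and 0.143), so the numbers were not taken to pair the livers. Over all genes, perfused over unperfused livers gave 140 called genes in edgeR, 66 with the replicate block and 757 in DESeq2. Idi1 and Sqle rest on 82 to 292 raw counts per liver.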
